A study of Mus musculus with 59 samples.

Results

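CTCF binding was described across the imprinted Kcnq1 and Igf2r domains of the mouse genome, at peaks that overlapped the spans of 8 genes widened by 10000 bp on each side. The genes were Kcnq1, Kcnq1ot1, Cdkn1c and Phlda2 on chromosome 7, and Igf2r, Airn, Slc22a2 and Slc22a3 on chromosome 17. The 16 peak lists held 342 peaks there, which joined into 38 sites where they overlapped by at least 1 bp. The same joining gave 105010 sites over the whole genome, so the domains held 0.0362% of them. The Kcnq1 domain had 17 sites, called K1 to K17 along the chromosome, and the Igf2r domain had 21, called I1 to I21.

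Chromatin immunoprecipitation and sequencing (ChIP-seq) had been done on 59 samples, of which 31 were ChIP samples in 16 groups with 1 peak list each and 28 were inputs. Of the 15 CTCF lists, 10 came from a course of fibroblast reprogramming by the factors Oct4, Sox2, Klf4 and c-Myc (OSKM), with an shRNA against Ctcf or one against luciferase. The sorted cells of that course had received OSKM from an inducible lentivirus. The sorted cells were Thy1+ cells of days 3 and 9, SSEA1- Thy1- cells and SSEA1+ cells of days 6 and 9, and GFP+ cells of day 12. In the GFP+ cells the Oct4-GFP reporter was on. The course also had day 0 cells, which are not counted among the sorted cells below. The day 10 lists came from cells given OSKM, Ctcf and an shRNA against Smarca5, from cells given OSKM and Ctcf, and from cells given OSKM with control. The remaining CTCF lists came from Smarca5 knockout and wild-type embryonic stem cells (ESCs) of the E14Tg2a line, and 1 list gave SMARCA5 in E14Tg2a cells that overexpressed Flag-biotin-Smarca5, pulled down with streptavidin. That tagged line was made from single picked clones that also carried the biotin ligase BirA. For the day 3 Thy1+ samples the labels disagreed on which had received the Ctcf shRNA, and the titles' grouping was followed.

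Each group had 1 list, so no value below has a replicate error and no test was run. The wild-type ESC, knockout ESC and day 10 Smarca5 shRNA groups had 1 ChIP sample each. Both day 12 groups had 3 and every other group had 2. Intervals of shares are Wilson 95% intervals and reflect counting error alone. The lists held between 23600 peaks, on day 0 with Ctcf shRNA, and 89567, in knockout ESCs, and the sources used here do not give the reads behind them. A peak list shows a site as held or not held, so partial loss of binding and the parental alleles cannot be seen in it, and the levels of Ctcf and Smarca5 and the cell types' marker genes could not be checked.

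Imprinted genes are expressed from 1 parental copy. In both domains a long noncoding RNA made from the paternal copy silences neighbouring genes on that copy. Kcnq1ot1 starts within Kcnq1, runs antisense to it, and silences Cdkn1c and Phlda2 among others. Airn starts within Igf2r, runs antisense to it, and silences Igf2r and, in the placenta, Slc22a2 and Slc22a3. The start of each RNA lies in a control region that carries DNA methylation on the maternal copy. CTCF binds a long DNA motif through its zinc fingers, holds the ends of chromatin loops, insulates neighbouring genes, and can be kept off its motif by methylation. SMARCA5 is the ATPase of the ISWI chromatin remodellers, which space nucleosomes around bound CTCF.

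The sequences below are those of gene starts that the results turn on, taken from RefSeq (GRCm38.p6) and given on the strand of each gene. For Airn, Igf2r and the noncoding gene Gm33663 near Cdkn1c, the bases shown are the part of the promoter window (250 bases before to 50 after the start) that lay inside a wild-type ESC peak. For Kcnq1ot1, which had no peak, the whole window is shown. Capitals mark matches to the CTCF core CNAGNNGGC on either strand.
Airn, site I11, chr17:12741217-12741360, plus strand: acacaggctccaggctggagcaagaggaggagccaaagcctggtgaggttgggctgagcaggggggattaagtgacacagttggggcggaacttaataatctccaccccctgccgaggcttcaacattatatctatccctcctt
Igf2r, site I13, chr17:12769657-12769778, minus strand: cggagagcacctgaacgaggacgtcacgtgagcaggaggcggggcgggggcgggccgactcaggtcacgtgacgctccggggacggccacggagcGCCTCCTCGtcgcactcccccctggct
Gm33663, site K14, chr7:143466449-143466692, minus strand: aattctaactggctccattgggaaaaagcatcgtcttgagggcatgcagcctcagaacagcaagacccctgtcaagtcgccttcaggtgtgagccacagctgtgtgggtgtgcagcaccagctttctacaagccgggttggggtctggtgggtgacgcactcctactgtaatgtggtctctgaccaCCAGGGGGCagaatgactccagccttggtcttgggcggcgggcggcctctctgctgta
Kcnq1ot1, no site, chr7:143296498-143296797, minus strand: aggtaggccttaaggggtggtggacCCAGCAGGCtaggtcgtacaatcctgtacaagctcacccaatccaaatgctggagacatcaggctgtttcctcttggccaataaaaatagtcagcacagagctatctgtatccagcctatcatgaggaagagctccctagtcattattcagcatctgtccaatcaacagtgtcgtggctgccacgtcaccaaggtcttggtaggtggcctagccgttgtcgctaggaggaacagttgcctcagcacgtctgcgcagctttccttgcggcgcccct
The covered part of the Airn start had no match, 54.9% G and C and 2 CpG. That of the Igf2r start had 1 match on the opposite strand (bases 96 to 104), 73.8% G and C and 16 CpG. The Gm33663 start had 1 match on its own strand (bases 187 to 195), and the Kcnq1ot1 window had 1 on its own strand (bases 26 to 34). Of 32851 RefSeq windows of 300 bases, 20.8% held at least 1 match, so a match describes these letters and no bound site. The table gave windows for 6 of the 8 genes, and Gm33663 was chosen after its overlap with K14 had been seen.

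**Figure D1:**
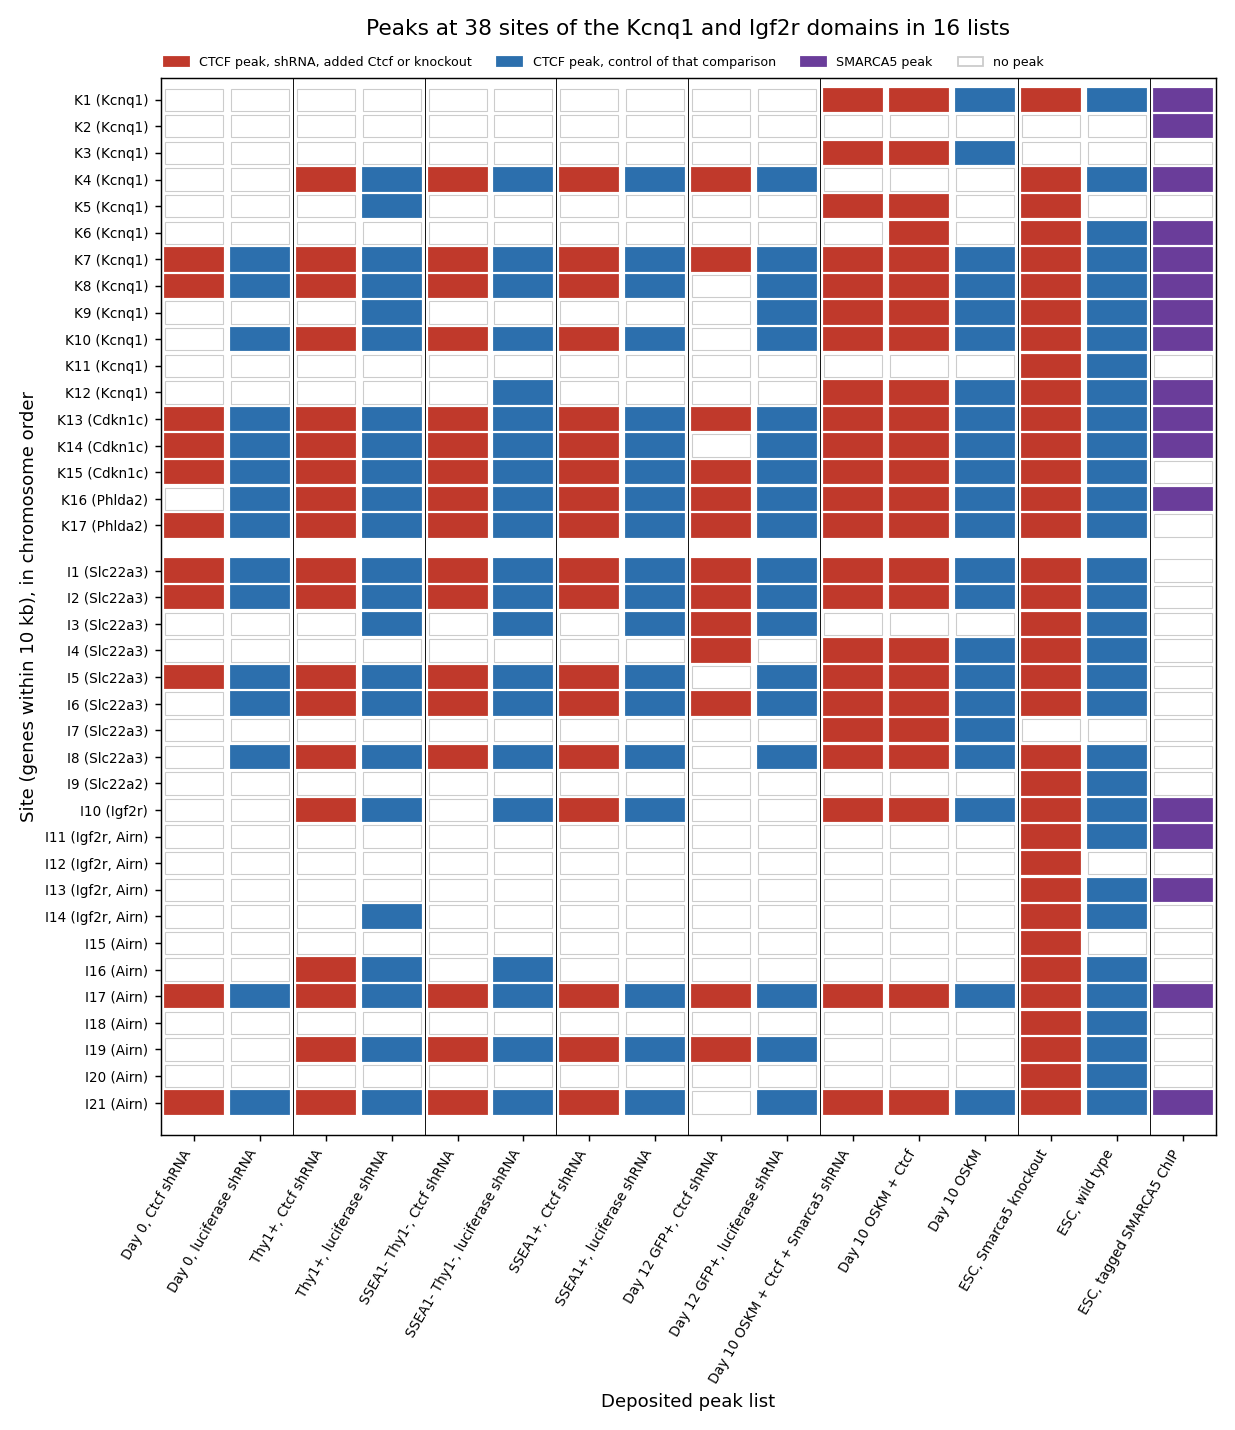
Presence of a peak (filled) or none (open) at each of the 38 sites (rows, with the genes within 10 kb) in each of the 16 lists (columns). I9, I11, I13, I18 and I20 in the lower rows are filled in both ESC CTCF columns and in no other CTCF column, and K13 to K17 near Cdkn1c and Phlda2 are filled in nearly every CTCF column.

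The most recurrent sites lay in Kcnq1, beside Cdkn1c and Phlda2, in and beside Slc22a3, and in Airn. All 15 CTCF lists held 7 of the 38 sites (18.4%, against 15.8% of the series): K7 in Kcnq1, K13 and K15 near Cdkn1c, K17 near Phlda2, I1 and I2 at Slc22a3, and I17 in Airn. At least 14 lists held 13 sites (34.2%, against 22.4% of the series). The median site of the domains was in 7 CTCF lists, against 6 over the series. A site absent from 1 list is counted as such whatever the length of that list.

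**Figure D2:**
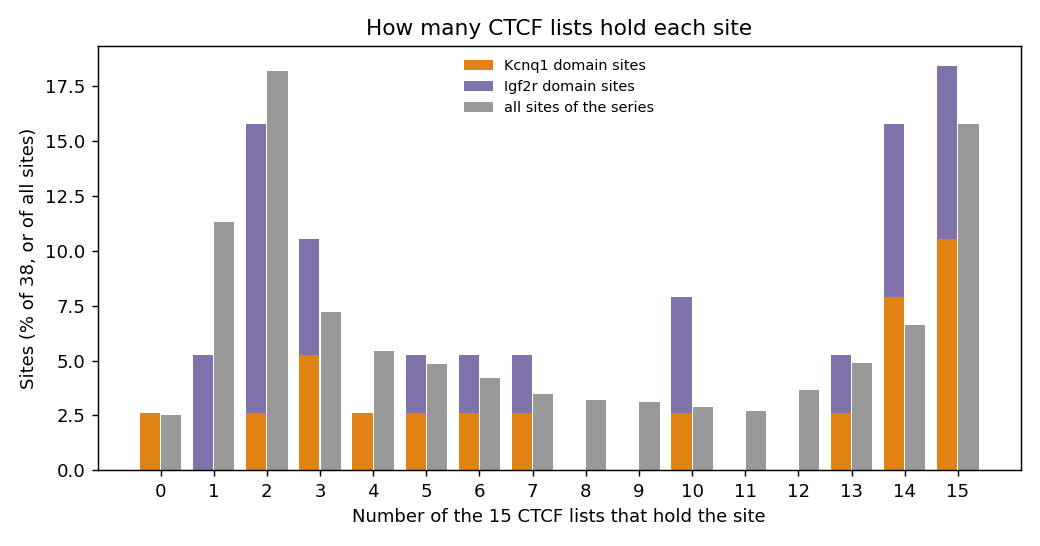
Share of sites (vertical axis, % of the 38 domain sites or of all 105010 sites) by the number of CTCF lists that held them (horizontal axis), with domain sites split by colour. The domain sites pile up at 2 lists (15.8%), 14 lists (15.8%) and 15 lists (18.4%), where the series has 18.2%, 6.64% and 15.8%.

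Kcnq1 encodes a voltage-gated potassium channel subunit. Its span, chr7:143106877-143427050, held 12 sites, all of them inside it, and 1 of these, K7 at chr7:143138647-143139195, was in every list. Ctcf shRNA and luciferase shRNA lists held 2 and 3 Kcnq1 sites on day 0, 4 and 6 in Thy1+ cells, 4 and 5 in the SSEA1- Thy1- fraction, 4 and 4 in the SSEA1+ fraction, and 2 and 5 on day 12. The day 10 lists held 8 with Smarca5 shRNA, 9 with added Ctcf and 7 with OSKM. Knockout ESCs held 10 and wild-type ESCs 9. The count was thus lowest on day 0 and on day 12 with Ctcf shRNA, and highest in the knockout ESCs. K7 to K10 covered 15.6 kb and held most of the reprogramming peaks. K1, at chr7:143107039-143107456 and 162 bp from the first base of the Kcnq1 span, appeared in the 3 day 10 lists, both ESC CTCF lists and the SMARCA5 list, and in none of the 10 shRNA lists of day 0 and the sorted cells.

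Kcnq1ot1, the noncoding RNA that silences the domain, had no site within 10 kb in any of the 16 lists. Its start at chr7:143296547 lay in a stretch free of sites that was 207 kb long in knockout and in wild-type ESCs, between K11 at chr7:143169159-143169558 and K12 at chr7:143376732-143377153. The stretch was 223 kb in the 3 day 10 lists and in the SSEA1- Thy1- luciferase shRNA list, where K12 was held but K11 was not. It reached 312 kb on day 0 and 325 kb on day 12, both with Ctcf shRNA, against 310 kb with luciferase shRNA at either time. Long stretches of this kind are not rare. In wild-type ESCs the median distance between neighbouring sites was 12.4 kb and 1.99% of 83152 such distances were at least as long as this one. On day 0 with Ctcf shRNA the median was 42.3 kb and 6.99% were as long.

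**Figure D3:**
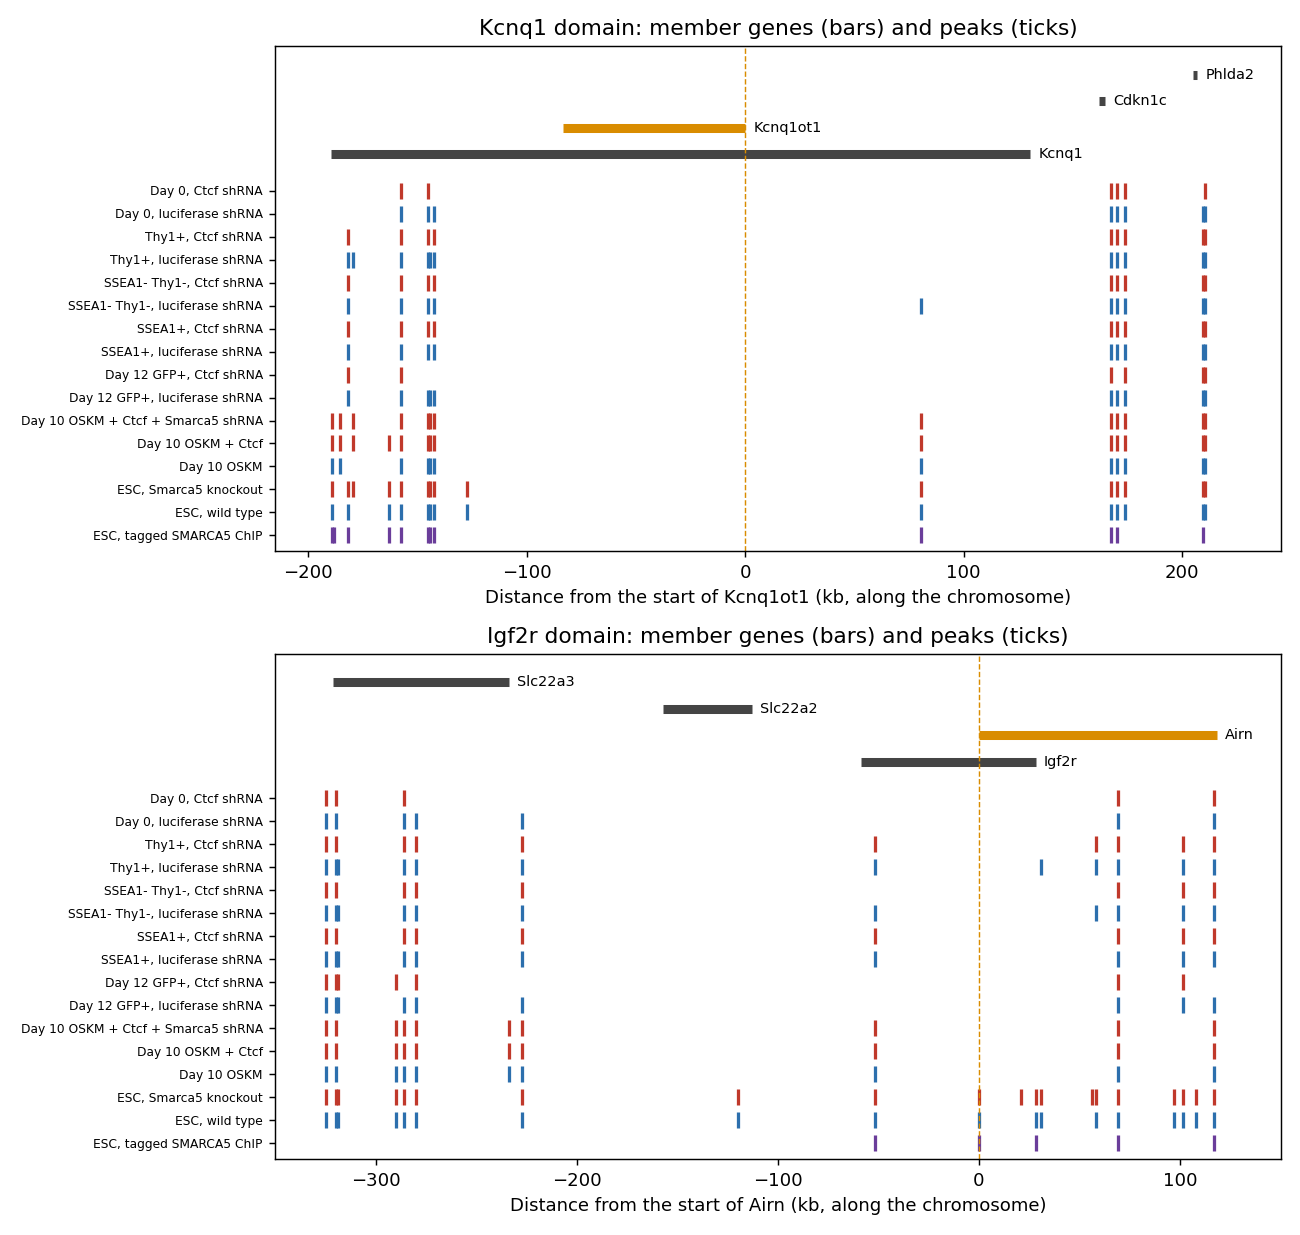
Sites (ticks) in each list (rows) and member genes (bars, noncoding RNAs in orange) by distance in kb from the start of Kcnq1ot1 (top) or of Airn (bottom). No tick lies near the Kcnq1ot1 start in any row, and ticks at the Airn start (I11) appear in the 3 ESC rows alone.

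Cdkn1c encodes an inhibitor of cyclin-dependent kinases that restrains growth. No site lay inside its span. Past the highest coordinate of the span lay 3 sites, at 2.79 kb (K13), 5.23 kb (K14) and 8.89 kb (K15). All 3 were held in 14 of the 15 CTCF lists. On day 12, Ctcf shRNA cells held 2 of them and luciferase shRNA cells 3. The site missing there was K14, at chr7:143466289-143466733, whose Gm33663 part is printed above with its core match.

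Phlda2 encodes a pleckstrin-homology protein that limits placental growth, and it had 2 sites, K16 at 2.69 kb and K17 at 3.56 kb beyond its span, with 368 bp between them. K17 was in all 15 CTCF lists. K16 was in 14, and was absent from day 0 cells with Ctcf shRNA while day 0 cells with luciferase shRNA held it. With peaks within 500 bp counted as the same, that absence disappeared, since K17 lay within that distance.

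Igf2r encodes a receptor that carries insulin-like growth factor to lysosomes, and its span is chr17:12682406-12769706. It had 5 sites, 4 of them inside the span and I14 outside it, and few of them were held outside ESCs. Knockout ESCs held 5 sites and wild-type ESCs 4. Ctcf shRNA and luciferase shRNA lists held 0 and 0 on day 0, 1 and 2 in Thy1+ cells, 0 and 1 in the SSEA1- Thy1- fraction, 1 and 1 in the SSEA1+ fraction, and 0 and 0 on day 12. Each of the 3 day 10 lists held 1. That site was I10, at chr17:12689517-12689924, which is at the end of Igf2r away from its start.

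The starts of both Airn and Igf2r had a CTCF site in ESCs alone. I11, at chr17:12741217-12741616, covered the Airn start, and I13, at chr17:12769379-12769778, covered the Igf2r start. Knockout ESCs, wild-type ESCs and the SMARCA5 list held both. None of the 13 lists of reprogramming cells held either: the nearest site to the Airn start lay 30.8 to 69.2 kb away in them, and the nearest to the Igf2r start 2.36 to 40.8 kb away. Both shortest distances came from I14, at chr17:12772036-12772467, in the Thy1+ luciferase shRNA list, which the label conflict touches. Without the Thy1+ pair the distances were 51.4 to 69.2 kb and 29.5 to 40.8 kb. Over all 32851 promoter windows the share with a CTCF site was also high in ESCs, at 16.6% with knockout and 15.2% in wild type, against 4.23% to 13.6% in the reprogramming lists, and the ESC lists were the longest. The part of list length in the ESC-only pattern was not tested.

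Airn, the noncoding RNA of this domain, had 11 sites along its 119 kb span, and knockout ESCs held all 11. Wild-type ESCs held 9. Ctcf shRNA and luciferase shRNA lists held 2 and 2 on day 0, 4 and 5 in Thy1+ cells, 3 and 4 in the SSEA1- Thy1- fraction, 3 and 3 in the SSEA1+ fraction, and 2 and 3 on day 12, and each day 10 list held 2. The sites common to day 0 and day 10 were I17, at chr17:12810449-12810862 and 69.3 kb into the transcript, and I21, at chr17:12858061-12858538 near its far end. I19, at chr17:12842682-12843086, was in all 8 lists of sorted cells and both ESC CTCF lists but in no day 0 or day 10 list.

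Slc22a2 and Slc22a3 encode organic cation transporters. Slc22a2 had 1 site, I9 at chr17:12621089-12621488, which was in both ESC CTCF lists and no other. Slc22a3 had 8 sites, 6 of them inside its span. Ctcf shRNA and luciferase shRNA lists held 3 and 5 of them on day 0, 5 and 6 in Thy1+ cells, 5 and 6 in the SSEA1- Thy1- fraction, 5 and 6 in the SSEA1+ fraction, and 5 and 6 on day 12. Each day 10 list and each ESC CTCF list held 7. Slc22a3 thus had as many sites at day 10 as in ESCs, while Airn had 2 at day 10 and 11 or 9 in knockout or wild-type ESCs. The day 10 lists alone held I7, at chr17:12507121-12507520, which is 184 bp from the Slc22a3 start.

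Across the control lists, the domains held 15 sites on day 0, 23 in Thy1+ cells, 21 in the SSEA1- Thy1- fraction, 19 in the SSEA1+ fraction, 19 on day 12 and 32 in wild-type ESCs. As a share of each list, these were 0.0520%, 0.0437%, 0.0414%, 0.0367%, 0.0359% and 0.0385%, so the larger ESC count went with a longer list. Without the 10 kb on each side of the genes, the counts were 8, 16, 14, 12, 12 and 25 in the same order. Of 24 sites in at least 1 of the 5 luciferase shRNA lists, wild-type ESCs held 23 (95.8%, against 89.2% of such sites over the series), and the exception was K5. A further 9 sites were in wild-type ESCs and in none of those 5 lists (23.7%, against 20.5% of the series): K1, K6, K11, I4, I9, I11, I13, I18 and I20. Counted over all 15 CTCF lists, 8 sites were confined to ESCs (21.1%, against 22.7% of the series), of which 7 lay in the Igf2r domain and 1, K11, in the Kcnq1 domain. I12 and I15 of these were in the knockout list alone, and 6 were in both ESC lists (15.8%, against 14.9% of the series).

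With the shRNA against Ctcf, fewer domain sites were held in all 5 populations, and in 4 of them the absent share was close to that of the whole lists. On day 0 the Ctcf shRNA list held 11 domain sites and the luciferase shRNA list 15. The 4 absent sites, K10, K16, I6 and I8, were 26.7% of 15 (10.9% to 52.0%), where 26.7% of the whole list was absent. None of the 11 was added (0%, up to 25.9%), where 10.4% of the whole list was added.

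In Thy1+ cells, under the titles' grouping, 19 sites stood with Ctcf shRNA against 23 with luciferase shRNA. The 4 absent sites were K5, K9, I3 and I14, or 17.4% (6.98% to 37.1%), against 19.0% of the whole list, and none was added, against 5.51%. In SSEA1- Thy1- cells 17 sites stood against 21. K12, I3, I10 and I16 were absent, or 19.0% (7.67% to 40.0%), against 18.0% of the whole list, and none was added, against 5.75%. In SSEA1+ cells 18 sites stood against 19, and only I3 was absent, or 5.26% (0.935% to 24.6%), against 18.1% of the whole list. None was added there, against 4.52% of the whole list, and the interval of the absent share spans the whole-list value.

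On day 12 the GFP+ cells showed the largest difference of the 5 pairs. The Ctcf shRNA list held 13 domain sites and the luciferase shRNA list 19. The 7 absent sites were K8, K9, K10 and K14 of the Kcnq1 domain and I5, I8 and I21 of the Igf2r domain, or 36.8% (19.1% to 59.0%), where 41.5% of the whole list was absent. 1 site of 13, I4 in Slc22a3, was added (7.69%, 1.37% to 33.3%), where 13.4% of the whole list was added. K8, K14, I5 and I21 were in every CTCF list but this one (10.5% of the 38 sites, against 3.04% of the series). The adjacent sites K8, K9 and K10 in Kcnq1 were all missing, while K7, 12.0 kb away, was held.

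Over the 5 pairs, 77 of 97 luciferase shRNA sites were kept with Ctcf shRNA (79.4%, 70.3% to 86.2%), against 75.5% over the whole lists. The Kcnq1 domain kept 39 of 48 and the Igf2r domain 38 of 49. The same site is counted once per pair here, so the 97 are not independent. Of 15 sites in all 5 luciferase shRNA lists, 7 were absent with Ctcf shRNA in no pair (46.7%, against 64.4% of such sites over the series). They are the 7 sites of all 15 CTCF lists, which by that choice cannot be absent in a pair. I3 in Slc22a3, at chr17:12422100-12422503, was absent in 3 of the 4 populations whose luciferase shRNA list held it, and was kept on day 12. K9, K10 and I8 were each absent in 2 populations.

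**Figure D4:**
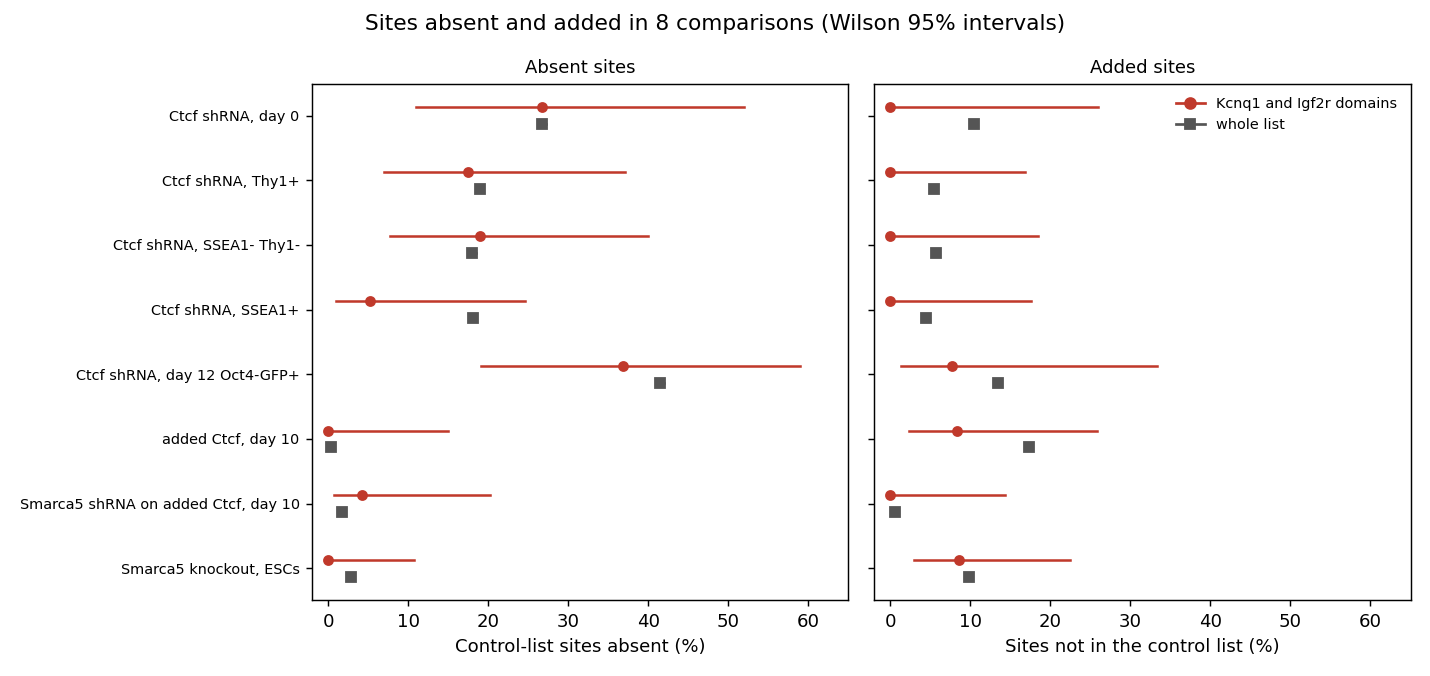
Share of control-list sites absent (left, %) and of sites not in the control list (right, %) in 8 comparisons (rows), for the 2 domains (circles) and the whole lists (squares), with Wilson 95% intervals. In every row of both panels the interval of the domains spans the whole-list value, from 0.330% absent with added Ctcf to 41.5% absent on day 12.

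With Ctcf added to OSKM at day 10, no domain site was absent and 2 were added. The OSKM and Ctcf list held 24 sites and the OSKM list 22. None of the 22 was absent (0%, up to 14.9%), where 0.330% of the whole list was absent. K5, at chr7:143116749-143117210, and K6, at chr7:143133522-143133932, were the additions, both in Kcnq1, or 8.33% of 24 (2.32% to 25.8%), where 17.3% of the whole list was added. Adding the shRNA against Smarca5 left 23 sites, against 24 with added Ctcf alone. K6 was the absent site (4.17%, 0.739% to 20.2%), where 1.72% of the whole list was absent, and none was added, against 0.542% of the whole list. The list with added Ctcf is in both comparisons, so K6, present there and in neither of the other day 10 lists, enters both. The 3 day 10 lists had identical domain sites apart from K5 and K6. All 3 held K3, at chr7:143110777-143111176, and I7, which no other list held (5.26% of the 38 sites, against 0.496% of the series). With sites confined to any of the day 10 lists counted, the domain sites were the same 2 and the series share was 1.90%.

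The knockout of Smarca5 in ESCs went with no absent domain site and 3 added ones. Knockout ESCs held 35 sites and wild-type ESCs 32. None of the 32 was absent (0%, up to 10.7%), where 2.88% of the whole list was absent. The additions were K5 in Kcnq1, I12 at chr17:12762152-12762551, where Airn and Igf2r overlap, and I15 at chr17:12797472-12797871 in Airn, or 8.57% of 35 (2.96% to 22.4%), where 9.81% of the whole list was added. No other list held I12 or I15.

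SMARCA5 was found at CTCF sites of both domains, more often in the Kcnq1 domain. Of the 32 wild-type CTCF sites, 16 had a SMARCA5 peak (50.0%, 33.6% to 66.4%), and 48.6% of the whole list had one. All 40418 overlapping sites of these 2 whole lists had identical starts, which can raise the overlap. The Kcnq1 domain had SMARCA5 at 11 of 14 sites (78.6%, 52.4% to 92.4%) and the Igf2r domain at 5 of 18 (27.8%, 12.5% to 50.9%). The intervals do not overlap, but neighbouring sites are not independent and the difference between the domains was not tested. Among wild-type CTCF sites, SMARCA5 was at 8 of 9 in Kcnq1, 2 of 3 near Cdkn1c and 1 of 2 near Phlda2. In the Igf2r domain it was at I10, I11, I13, I17 and I21, and at none of the 7 wild-type CTCF sites of Slc22a3. SMARCA5 was therefore at the Airn and Igf2r starts, and at I17, the Airn site that every CTCF list held. Over all 32851 promoter windows, 17.6% had a SMARCA5 site, the highest share of the 16 lists. All 32 wild-type CTCF sites stood in the knockout list, with or without SMARCA5, where 97.1% of the whole list was kept. The sites with SMARCA5 are thus not set apart by being kept. From the other side, 16 of 17 SMARCA5 sites of the domains had a wild-type CTCF site, against 86.1% of the whole SMARCA5 list, and the exception was K2 at chr7:143108049-143108448, just inside Kcnq1. Of the 13 sites in at least 14 CTCF lists 7 had SMARCA5, against 9 of the other 19 wild-type sites. By domain this was 5 of 7 against 6 of 7 for Kcnq1, and 2 of 6 against 3 of 12 for Igf2r. The same shares over the series were not computed, so nothing about recurrence is read from this split.

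Neighbour genes of both regions were counted in the same way. A site near several of these genes, or near a member as well, can count for each, so they are no separate set. Of 13 genes of the Kcnq1 region all had a site and 8 had at least 1 that all 15 CTCF lists held. Their numbers of sites were Th 2, Ascl2 3, Tspan32 2, Cd81 4, Tssc4 2, Trpm5 5, Slc22a18 7, Nap1l4 6, Cars 5, Tnfrsf23 4, Tnfrsf22 2, Osbpl5 9 and Dhcr7 2. Of 10 genes counted in the Igf2r region all had a site and 5 had at least 1 in all 15 lists. Their numbers were Plg 6, Mas1 5, Pnldc1 7, Mrpl18 4, Tcp1 4, Acat2 5, Wtap 7, Sod2 2, Map3k4 13 and Agpat4 4. On day 12 the Ctcf shRNA list held fewer sites than the luciferase shRNA list at 9 of the 13 and 4 of the 10, and more at none. Shares over all genes were not computed, so these counts are not set apart from the genome. Over the whole day 12 luciferase shRNA list 41.5% of sites were absent, and 15.8% of the series was in all 15 CTCF lists. Kcnq1ot1 was thus the 1 gene among the members and the neighbours counted here with no site.

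Genes on other chromosomes with the most similar numbers of sites over the 15 CTCF lists were found by the sum of absolute differences. For Kcnq1, with 82 sites summed over the lists, Upf1 differed by 9, and Rassf8 and Sptb by 10 each, among 19870 protein-coding genes. For Igf2r, with 18, Aunip, Npepl1 and Zfpl1 each differed by 3 among 20841 genes. Aunip held 4 sites in each ESC list and at most 2 in any other, where Igf2r held 5 and 4 in knockout and wild-type ESCs and at most 2 in any other. Such short counts match by number alone.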

How the data were processed

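The submitters' processing notes name mm10 (GRCm38) as the genome, and MACS2, HOMER, Bowtie2, bedtools, SAMtools, Picard, Trim Galore, FastQC and deepTools as tools. Their versions, the thresholds and how samples were pooled into lists were not given in the sources used here. Lists deposited by the authors hold intervals of 400 bp, and the deposited score is 0 in every line of all 16, so peaks could not be ranked. Some lists have identical peak starts, which can raise overlaps. This held for 100% of overlapping sites between the wild-type ESC list and the knockout or the SMARCA5 list, and for 2.43% between the day 0 lists.

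Gene spans were those of RefSeq on GRCm38.p6. Exons and introns were not used here. Overlapping peaks within a list (0 to 189 per list) were first joined, so each site counts once. A site was kept when peaks overlapped by at least 1 bp. Alternatives were a reciprocal overlap of 50%, joining within 500 bp, and spans widened by 0, 2.5 or 50 kb. The overlap and joining functions were checked on simulated data, and the Wilson intervals were not part of that check. The most similar genes were the 3 protein-coding genes on other chromosomes with the smallest sum of differences, ties by symbol, and neighbours were a fixed list, of which some genes are not reported here. The members and lists were chosen with earlier results of these data known. Computations ran in Python 3.11.15 with SciPy 1.17.1, NumPy 2.4.6 and, for the plots, matplotlib 3.10.9.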

Additional observations from a re-analysis of the deposited data

How the results depend on the processing

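No paired analysis was possible because all samples of a group shared 1 list, and for the same reason no replicate could be left out. The wild-type ESC, knockout ESC and day 10 Smarca5 shRNA groups had 1 ChIP sample each, so no replicate existed there. A stricter peak threshold could not be tried, since every deposited score is 0. The number of domain sites was 38 at a reciprocal overlap of 50%, 37 with peaks joined within 500 bp and 31 with spans widened by 0 bp, but 62 with spans widened by 50 kb. Summed over the 16 lists, member sites numbered 328, against 224 with spans widened by 0 or 2.5 kb and 547 at 50 kb. List by list, 32 of 48 such counts moved by over 1.5 times: all 16 at 50 kb, and at 0 and 2.5 kb those of both day 0, both SSEA1+ and both day 12 lists and of the Ctcf shRNA lists of Thy1+ and SSEA1- Thy1- cells. Day 0 then had 6 sites with Ctcf shRNA and 8 with luciferase shRNA, and day 12 had 8 and 12. The number of sites in all 15 CTCF lists stayed at 7 under either joining and without the Thy1+ lists, and was 9 without the day 0 lists. All 32 alternative kept shares and all 16 alternative added shares lay within the 95% interval of the value reported. These intervals are wide and the alternatives share many sites with the main setting, so such agreement was likely beforehand. In the day 12, added Ctcf and knockout pairs, 100% of overlapping sites had identical starts after rounding. The reciprocal overlap of 50% could therefore hardly change those shares. The kept share over the 5 Ctcf shRNA pairs was 78.4% without the Thy1+ pair and 83.3% without the day 12 pair. The share of wild-type ESC sites with SMARCA5 ranged from 45.7% with the knockout list in its place to 51.9% at 50 kb. The counts of sites confined to ESCs (8), missing from day 12 Ctcf shRNA alone (4) and confined to the 3 day 10 lists (2) were recomputed under alternatives chosen after seeing the data, and gave the same values, except that 9 sites were confined to ESCs once the 2 Thy1+ lists were left out. Read depth is not known, so a site missing from a short list may lie below its detection limit.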

Other observations

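A group of sites in the domains was held by at least 1 list of sorted reprogramming cells and both ESC CTCF lists but by none of the 3 day 10 lists. It had 5 members, K4 in Kcnq1, I3 in Slc22a3 and I14, I16 and I19 at Airn, or 13.2% of the 38 sites, against 16.2% of the series. K4 and I19 were in all 8 lists of the sorted cells (5.26%, against 1.06% of the series). I3 and I16 were in some of those 8, and I14 was in the Thy1+ luciferase shRNA list alone among them. The grouping was chosen after the values were seen. The labels' protocols describe a retroviral and an inducible lentiviral OSKM system and tie the second to the sorted cells, and they name no sort for the day 10 cells. System, day and sorting cannot be told apart here.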
